A study of Mus musculus with 131 samples.

Results

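The mitochondrial ribosomal protein genes, named Mrpl for the large subunit and Mrps for the small subunit, were followed in single cells of the mouse blastocyst. Every gene whose symbol begins with Mrpl or Mrps and a number was taken, pseudogene names were left out, and 77 of the 13927 genes in the deposited expression table met this rule. RefSeq lists 78 such genes and 6 pseudogenes of the family, and the one gene of the 78 without a value was Mrpl53. Of the 77 genes, 26 encode small-subunit proteins and 50 large-subunit proteins. The large-subunit count includes Mrps18a and Mrps30, whose products sit in the large subunit despite their names, and Mrps36 was counted in neither because its product belongs to the 2-oxoglutarate dehydrogenase complex. All 77 reached at least 10 CPM (a gene's reads per 1e6 reads of the cell or group) in a group, so no member was lost to a filter on low values.

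The study injected embryonic stem cells (ESCs) into diploid host embryos and picked single cells from the resulting blastocysts at embryonic day 4.0. Of the series' 131 samples, 40 single cells labelled GFP and 55 labelled RFP were used here. GFP cells carried an Actin-GFP transgene and RFP cells an Actin-RFP transgene, both named for the actin gene and both in strain C57BL/6J. Promoter methylation came from 3 bisulfite libraries of cultured C57BL/6J cells, namely wild-type mouse embryonic fibroblasts (MEF) at passage 2, Gjb2 35delG ESCs at passage 7 and Actin-RFP ESCs at passage 10. The labels name no embryo, so each group of cells was 1 sample, and the difference between the groups has no replicate check and no test.

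Mitochondrial ribosomes translate the few proteins encoded by mitochondrial DNA, all of them subunits of the respiratory chain or the ATP synthase. Their proteins are encoded in the nucleus, made in the cytosol and imported, while their ribosomal RNAs are transcribed inside the organelle, so the particle draws on both genomes. One set of these proteins has counterparts in the bacterial ribosome, and another was added during mitochondrial evolution. In the preimplantation embryo, oxygen consumption rises at the blastocyst stage. There the trophectoderm (TE) is the outer epithelium that pumps fluid into the cavity and will form placenta, whereas the epiblast (EPI) is the pluripotent source of the fetus and of ESCs.

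The 2 groups differed in lineage as well as in reporter. Of 14 TE markers, 12 had a log2 ratio of RFP over GFP of -1 or less, and of 12 primitive endoderm (PrE) markers, 11 did. Of 12 measured EPI markers, 9 had a ratio of 1 or more, and the 2 below 0 were Nanog, at -0.47, and Zfp42, at -0.12. Among all genes, 25% were at 1 or more and 21.9% at -1 or less. Gata3, a TE transcription factor, had medians of 787 CPM (GFP) and 0.269 CPM (RFP), and Fgf4, a growth factor of the epiblast, had medians of 0.253 and 258 CPM. Of 10 feeder-fibroblast markers 5 were measured, among them, pooled, Fn1 at 5.55 CPM in GFP and 97.3 CPM in RFP cells, Dcn at 0.00895 and 2.17 CPM and Col1a2 at 0 and 0.604 CPM. Of 10 oocyte markers 4 were measured, the highest being Zp3 at 0 and 9.51 CPM, and the part of such RNA in the results was not tested. Reporter, cell source and lineage therefore cannot be told apart in any ratio given here. Depth ran from 2.0 to 8.32 M reads (M, 1e6 reads) per GFP cell (median 5.61) and from 0.518 to 9.56 M per RFP cell (median 5.58). RFP cells had fewer detected genes, with a median of 4527 against 5209 in GFP cells.

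Promoters were examined because several nuclear factors are known for binding upstream of genes for mitochondrial proteins. The RefSeq promoter table (GRCm38.p6, 250 bases before to 50 after the start) held 68 of the 77 genes, and it was searched on both strands. The letters searched were CCGGAAG for the ETS family that includes GABPA, GCGC, any base and TGCGC for NRF1, AAGATGGC for YY1, CACGTG for the E-box of Myc-type factors and GGGCGG for the Sp family. The promoters printed next carry the different combinations and include those of Mrps6, the gene with the lowest RFP-to-GFP ratio, and Mrpl50, one of the 3 genes with the highest. Each runs from 170 bases before to 30 after the start, 5′ to 3′ on the gene's strand, with ETS, NRF1 and YY1 matches in capitals. Mrps6 (plus strand, chr16:92058166-92058365) and Mrpl50 (minus strand, chr4:49521054-49521253) have none of the 3 motifs in these bases. Mrps21 (minus strand, chr3:95871485-95871684) and Mrpl57 (plus strand, chr14:57826069-57826268) each have an NRF1 match before the start and an ETS match after it. Mrpl45 (plus strand, chr11:97315546-97315745) has 3 NRF1 matches, Mrps12 (minus strand, chr7:28741792-28741991) an ETS match at the start, and Mrps11 (plus strand, chr7:78782961-78783160) a YY1 match.
Mrps6: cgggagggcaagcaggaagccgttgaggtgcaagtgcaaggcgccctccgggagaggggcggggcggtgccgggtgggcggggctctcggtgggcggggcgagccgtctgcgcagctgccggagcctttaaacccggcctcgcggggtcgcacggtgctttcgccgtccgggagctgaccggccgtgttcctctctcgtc
Mrpl50: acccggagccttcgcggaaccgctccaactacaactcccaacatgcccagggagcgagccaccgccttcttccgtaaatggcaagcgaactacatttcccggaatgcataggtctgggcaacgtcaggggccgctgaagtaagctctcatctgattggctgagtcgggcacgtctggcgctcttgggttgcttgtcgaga
Mrps21: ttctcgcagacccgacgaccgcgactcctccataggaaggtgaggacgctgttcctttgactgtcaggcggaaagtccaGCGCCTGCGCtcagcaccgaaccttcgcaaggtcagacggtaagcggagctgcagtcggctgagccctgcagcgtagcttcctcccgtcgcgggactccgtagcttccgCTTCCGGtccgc
Mrpl57: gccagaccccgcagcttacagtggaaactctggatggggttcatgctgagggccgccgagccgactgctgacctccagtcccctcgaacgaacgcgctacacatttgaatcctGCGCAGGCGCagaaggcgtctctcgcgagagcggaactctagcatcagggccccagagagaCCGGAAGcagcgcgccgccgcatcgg
Mrpl45: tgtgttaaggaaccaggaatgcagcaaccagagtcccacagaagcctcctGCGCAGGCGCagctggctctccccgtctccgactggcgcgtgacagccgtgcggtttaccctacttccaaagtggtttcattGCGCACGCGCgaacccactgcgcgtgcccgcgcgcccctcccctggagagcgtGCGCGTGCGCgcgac
Mrps12: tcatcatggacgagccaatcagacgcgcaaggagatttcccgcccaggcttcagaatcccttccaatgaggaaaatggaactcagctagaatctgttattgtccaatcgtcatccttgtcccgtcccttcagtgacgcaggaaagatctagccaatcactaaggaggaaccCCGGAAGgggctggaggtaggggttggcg
Mrps11: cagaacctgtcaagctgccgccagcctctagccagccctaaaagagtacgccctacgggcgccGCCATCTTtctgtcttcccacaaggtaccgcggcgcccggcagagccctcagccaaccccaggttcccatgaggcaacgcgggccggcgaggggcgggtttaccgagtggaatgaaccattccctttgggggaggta

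In all, 24 of the 68 promoters (35.3%) held the ETS letters, against 9.12% of all 27025 promoters in the table and 23.5% of the 3997 promoters of genes expressed in the same range. NRF1 letters stood in 13 promoters (19.1%, against 4.78% and 13.3%) and YY1 letters in 12 (17.6%, against 2.88% and 6.43%). At least one of the 3 motifs was found in 41 promoters, or 60.3%, compared with 15.2% of all promoters and 37.8% of those in the same range. The E-box was found in 7.35% of the family's promoters and 7.24% of all promoters (11.9% in the same range), and Sp letters in 50% against 35.9% and, in the same range, 67.2%. The same range means genes whose higher pooled level lay between 34.5 and 1244 CPM, the limits of the family itself, and it held 4990 genes. These matches are a description of letters, and matches of different motifs may overlap. The 41 genes with an ETS, NRF1 or YY1 match had a median RFP-to-GFP log2 ratio of -0.23, and the 27 without had 0.19. Taken singly, the medians with and without a match were -0.36 and -0.11 for ETS and -0.55 and -0.15 for NRF1. For YY1 they were nearly equal, at -0.165 and -0.167. Sp letters gave -0.27 and -0.12, and the E-box -0.16 and -0.17. These differences were not tested.

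Summed over the 77 genes, mitochondrial ribosomal protein RNA took a slightly smaller part of the reads in RFP cells. The summed level per GFP cell was 7894 CPM at the lowest, 13248 at the median and 16517 at the highest, and per RFP cell it was 512, 11479 and 21470 CPM. The 2 groups overlapped over most of their range, but 43 of 55 RFP cells lay below the GFP median. In all pairs of 1 RFP and 1 GFP cell, the RFP cell was the higher in 27%. With the reads of each group pooled, GFP cells summed to 13447 CPM (13431 to 13462, exact 95% Poisson interval) and RFP cells to 11819 CPM (11807 to 11831). The pooled sums gave a log2 ratio of -0.19. Such intervals cover counting error only, since amplified copies carried no molecular identifiers and cells of an embryo are not independent.

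**Figure D1:**
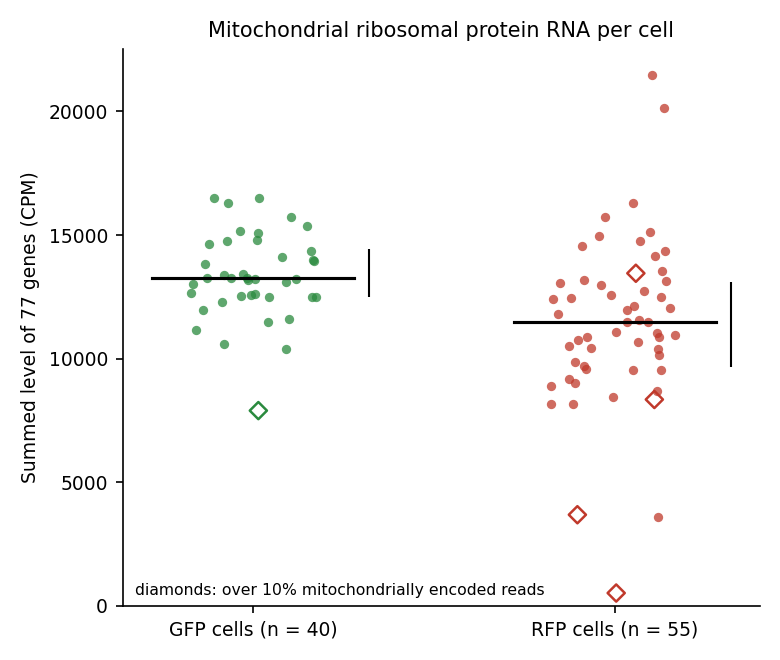
Summed level of the 77 genes in each cell, in CPM on a linear axis, for GFP and RFP cells; horizontal lines are medians, vertical lines at the side the quartiles, and diamonds cells with over 10% mitochondrially encoded reads. RFP cells spread from 512 to 21470 CPM around a median of 11479, and GFP cells from 7894 to 16517 around 13248.

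The spread between cells was wider among RFP cells, with a standard deviation (SD) of 3435 CPM against 1742 CPM among GFP cells. RFP cells 6, 39 and 44 lay below every GFP cell, at 512, 3573 and 3680 CPM, and RFP cells 12 and 19 above every GFP cell, at 21470 and 20129 CPM. RFP cell 6 had the fewest reads of all, 0.518 M, and 62.0% of them came from mitochondrially encoded genes; in RFP cell 44 that share was 16.3%. The lowest GFP cell, number 27, had 14.9% mitochondrially encoded reads, against a median of 3.12% in GFP cells. RFP cell 39 stood apart without such a sign: it had 4.09 M reads, 5330 genes and 2.12% mitochondrially encoded reads. In this cell the nuclear respiratory chain genes summed to 26056 CPM, and the cytosolic ribosomal protein genes to 102046 CPM, above the upper quartile of RFP cells (79798 CPM). RFP cell 12 reached its high sum from few genes, with 31 members detected and 18.4% of the sum from Mrps24 alone. Leaving out RFP cells 6, 39 and 44, a choice made after their values were seen, gave a log2 ratio of the sum of -0.16.

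Gene by gene, the family was split around a value just below equality. The log2 ratio, taken on pooled CPM + 1 so that the change of low genes is understated, was above 0 for 31 genes and below 0 for 46, with a median of -0.15. Its quartiles were -0.65 and 0.36. Over all 13927 genes the median was 0.08, and over genes in the same CPM range it was 0.15, with quartiles of -0.78 and 0.95. Of all genes 7571 were above 0 and 6356 below, and of the 4990 in the same range 2701 and 2289. A ratio of 1 or more was reached by 3 members (3.90%; background 25% of all genes and 23.8% in the same range), and a ratio of -1 or less by 10 (13%; background 21.9% and 21.3%). The other 64 lay between, 83.1% of the family against 54.9% of genes in the same range. In both directions, then, a smaller share of members than of genes in the same range lay outside the band between -1 and 1. Genes in the same range were not matched to members on level. Their median pooled levels were 72.2 CPM in GFP and 74.2 CPM in RFP cells, and those of members 117 and 104 CPM. The part of level in this contrast was not tested.

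**Figure D2:**
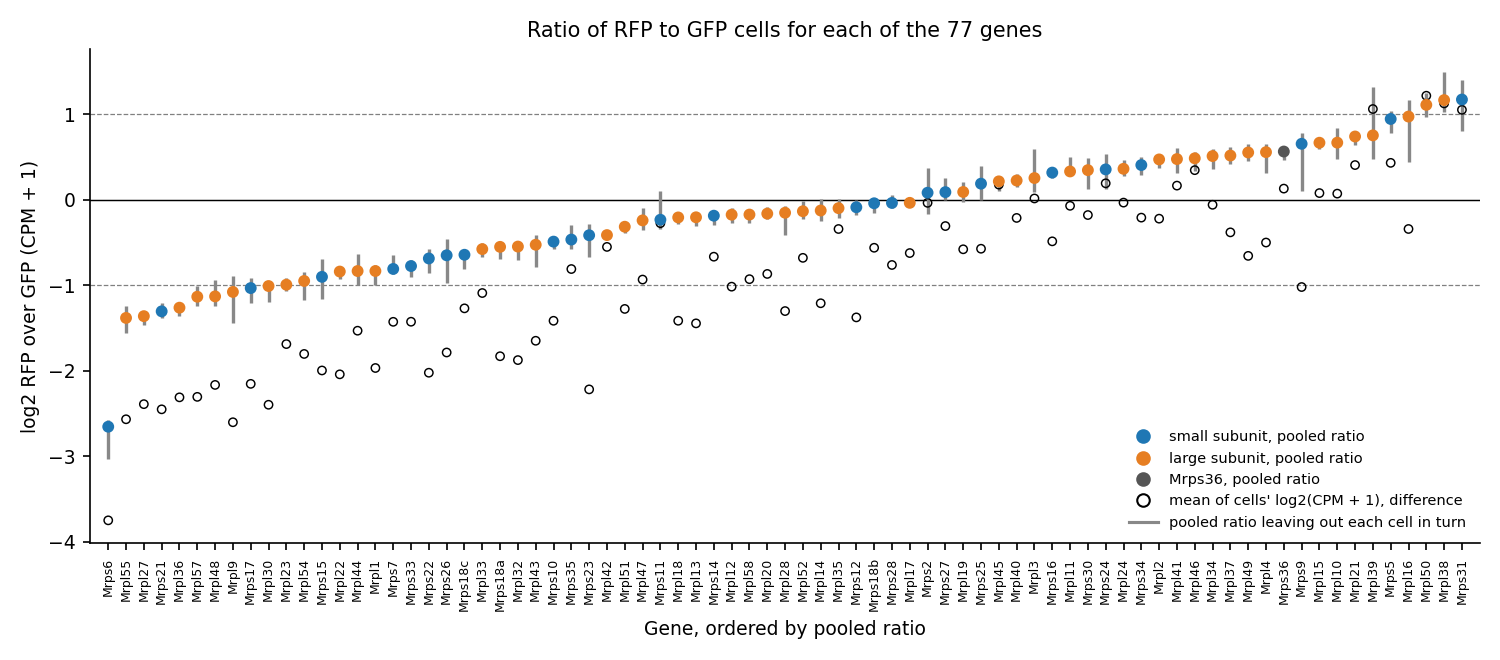
Log2 ratio, RFP over GFP, for each of the 77 genes in order of the pooled ratio (filled circles, coloured by subunit), with the range on leaving out each cell in turn (grey bars) and the difference of the mean log2(CPM + 1) over cells (open circles); dashed lines mark ratios of 1 and -1. Pooled ratios run from -2.66 for Mrps6 to 1.17 for Mrps31, and most open circles lie below the filled ones.

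Taking the log in each cell before averaging gave lower values. The mean of log2(CPM + 1) over RFP cells minus that over GFP cells had a median of -0.81 over the 77 genes, and it was below 0 for 63 of them. Genes in the same range also moved, to a median of -0.47, and all genes to -0.06. Below 0 on this scale were 3070 of the 4990 genes in the same range and 7679 of all 13927 genes. On this scale 35 members (45.5%) were lower by 1 or more, against a background of 38% in the same range. The larger share is thus near that of genes in the same range. By cell pairs, the RFP cell was the higher in 25% or fewer pairs for 11 members (14.3%; background 5.5% of all genes and 13.4% in the same range) and in 75% or more for 0 members (2.28% and 5.03%). In a gene's share of pairs, here and below, ties were split evenly between the groups. Ties between cells without a read therefore draw the share toward equality. The plain mean of CPM over cells, also with equal weights, gave a median of -0.18 and 11 members at -1 or less. The number of members with a read was 69.5 at the median in GFP cells (30 to 77) and 64 in RFP cells (31 to 77). After each cell was thinned to 500000 reads, the medians were 67.5 and 58. The part of detection in these differences was not tested.

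Mrps6 stood apart from the rest of the family at the low end. It encodes the mitochondrial counterpart of bacterial S6, which lies beside the S18 protein on the platform of the small subunit, and the gene (ENSMUSG00000039680) lies at chr16:92058336-92112227 in RefSeq's GRCm38.p6. GFP cells ranged from 0 to 192 CPM with a median of 49.3, and RFP cells from 0 to 143 CPM with a median of 0. The groups overlapped, but 29 of 40 GFP cells and only 9 of 55 RFP cells reached 10 CPM. With ties split evenly, the RFP cell was the higher in 11.9% of cell pairs. Pooled, the level in GFP cells was 54 CPM (95% interval 53 to 55), that in RFP cells 7.72 CPM (7.42 to 8.04), and the log2 ratio was -2.66. A single cell, RFP cell 30, gave 27.1% of the RFP reads, and without it the ratio was -3.03. Slc5a3, a myo-inositol transporter gene that overlaps Mrps6, had 12.7 CPM in GFP cells and no read in any RFP cell, and the files do not say which gene received reads of the overlap.

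The next genes in the low direction were spread over both subunits. Mrps21, the counterpart of bacterial S21 and a platform protein of the small subunit (ENSMUSG00000054312, chr3:95862634-95871514), had a read in every GFP cell, at 34.3 CPM at the lowest, 183 at the median and 658 at the highest. RFP cells ran from 0 through a median of 73.0 to 296 CPM, and the log2 ratio was -1.31. The RFP cell was the higher in 10.05% of pairs, the smallest share of any member. Mrpl55, a large-subunit protein without a bacterial counterpart, had medians of 165 CPM in GFP and 48.2 CPM in RFP cells and a ratio of -1.38, and the RFP cell was the higher in 23.1% of pairs. Mrpl27 had medians of 295 and 86.8 CPM and a ratio of -1.36, and in both genes the groups overlapped. Its product is the counterpart of L27, whose bacterial form reaches toward the peptidyl transferase centre. In Mrpl27 the RFP cell was the higher in 16.6% of pairs.

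Mrpl36, the counterpart of the small protein L36, had medians of 228 and 36.8 CPM and a ratio of -1.26. Mrpl57, a mitochondrion-specific protein of the large subunit, had medians of 210 and 69.6 CPM and a ratio of -1.13. For Mrpl48 the medians were 62.3 and 6.74 CPM, with a ratio of -1.13 that became -0.94 without GFP cell 5. Mrpl9 had medians of 63.3 and 0.421 CPM and a ratio of -1.08, and 1 RFP cell, number 33, gave 23.8% of its RFP reads. Without that cell Mrpl9 was at -1.44, without GFP cell 9 at -0.89, with the mean CPM over cells at -0.71 and with cells thinned to 500000 reads at -0.74. All 4 genes overlapped between the groups, since each had cells of both groups without a read. Mrps17, at -1.03, and Mrpl30, at -1.01, completed the 10 genes at -1 or less and reached -0.92 and -0.95 at the highest with each cell left out in turn, and Mrpl23, at -0.99, lay just outside. Mrpl27, Mrpl57 and Mrpl48 each overlap another gene in RefSeq. Of those, Eme1 and Ska3 were higher in RFP cells, at 1.04 and 1.57, while Rab6a was at -0.10.

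At the high end, the 3 genes above 1 were mitochondrion-specific, and each was without a read in many cells of both groups. Mrps31 (ENSMUSG00000031533, chr8:22410449-22429669), a protein of the small-subunit head, ran from 0 through 0.931 to 213 CPM in GFP cells and from 0 through 30.02 to 1022 CPM in RFP cells. Its ratio was 1.17, and 0.81 without RFP cell 41, which alone gave 24.1% of the RFP reads and had 10.8% mitochondrially encoded reads. Mrpl38 (ENSMUSG00000020775, chr11:116131817-116138868), a protein of the central protuberance of the large subunit, had medians of 0 and 6.44 CPM and maxima of 213 and 255 CPM. Its ratio was also 1.17, and 0.98 with cells thinned to 500000 reads, with 16 of 40 GFP cells and 32 of 55 RFP cells holding a read. Mrpl50 (ENSMUSG00000044018, chr4:49512597-49521083), also of the large subunit, had medians of 5.52 and 77.4 CPM and a ratio of 1.11, which was 0.96 without RFP cell 4. In all 3 genes the range of GFP cells lay within that of RFP cells. With ties split evenly, the RFP cell was the higher in 56.6% to 62.7% of pairs.

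**Figure D3:**
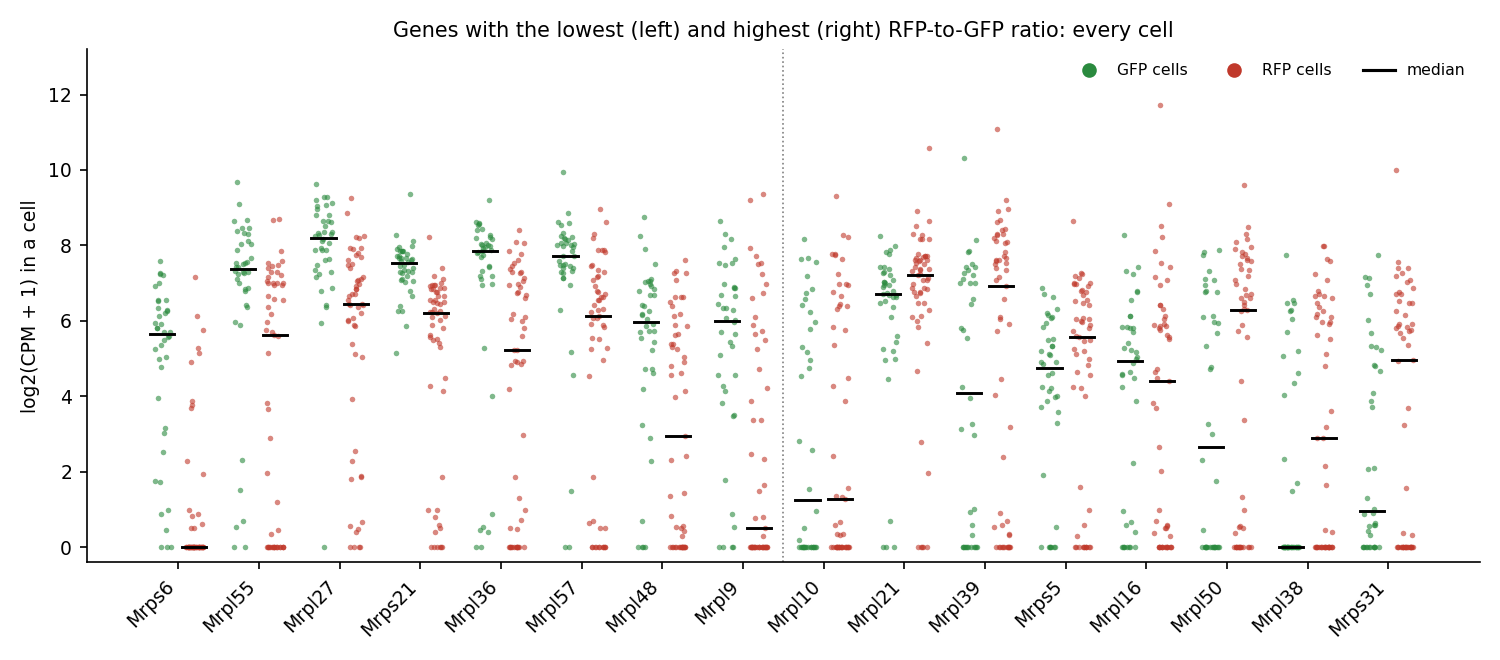
Log2(CPM + 1) in every cell for the 8 genes with the lowest ratio (left of the dotted line) and the 8 with the highest (right), GFP cells in green and RFP cells in red, with black lines at the medians. Cells at 0 have no read; Mrps6 has its RFP median at 0, and Mrps21 has no GFP cell at 0.

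Below the 3 came Mrpl16, Mrps5, Mrpl39, Mrpl21 and Mrpl10. Mrpl16, the counterpart of L16, had a pooled ratio of 0.98 but a lower median in RFP cells (20.3 CPM) than in GFP cells (29.8 CPM). RFP cell 12 reached 3370 CPM and gave 31.6% of the RFP reads, and without it the ratio was 0.45. Mrps5, the counterpart of S5, was the more even of these, with medians of 25.8 and 46.9 CPM and a ratio of 0.95, and the RFP cell was higher in 61.3% of pairs. Mrpl39 had medians of 16.2 and 121 CPM and a ratio of 0.76, which rose to 1.32 without GFP cell 25, the source of 34.6% of the GFP reads. Without RFP cell 41, the source of 18.8% of the RFP reads, it was 0.48, and without cells above 10% mitochondrially encoded reads it was 0.49. Mrpl21 had medians of 105 and 147 CPM and a ratio of 0.74, and it overlaps Ighmbp2, at 2.53. Mrpl10, which anchors the stalk that recruits translation factors, had nearly equal medians of 1.43 CPM in both groups and a pooled ratio of 0.67. Of the 40 GFP cells, 33 had a read of Mrps5, 37 of Mrpl21, 32 of Mrpl16, 28 of Mrpl39 and 23 of Mrpl10.

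Both subunits and both evolutionary classes held genes in either direction. Small-subunit genes had a median ratio of -0.21, with 1 gene at 1 or more and 3 at -1 or less, and large-subunit genes a median of -0.14, with 2 and 7. The 45 genes with bacterial counterparts had a median of -0.16 (0 and 7), and the 31 mitochondrion-specific genes -0.13 (3 and 3). In these 4 classes the shares ran from 0% to 9.68% at 1 or more and from 9.68% to 15.6% at -1 or less. Of all genes, 25% and 21.9% lay past these limits. Within each cell, the small-subunit sum divided by the large-subunit sum had a median of 0.406 in GFP cells (0.275 to 0.856) and 0.404 in RFP cells (0.00598 to 1.34). Medians thus nearly coincided while RFP cells spread further. The central protuberance alone spanned most of the family's range: Mrpl38 was at 1.17, Mrpl46 at 0.49, Mrpl40 at 0.23 and Mrpl48 at -1.13, a set singled out after its values were seen.

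The 3 paralogs of bacterial S18 gave an example within one gene family. Mrps18c, the form that takes the place of S18 next to the S6 counterpart, had medians of 210 CPM (GFP) and 117 CPM (RFP) and a ratio of -0.64, or -0.81 without RFP cell 12. Mrps18a, a large-subunit protein, had medians of 241 and 133 CPM and a ratio of -0.55. Mrps18b, found elsewhere in the small subunit, had medians of 125 and 115 CPM and a ratio of -0.04. All 3 overlapped between the groups, and the RFP cell was higher in 23.9%, 33.2% and 45% of pairs, in that order. Mrps30, the other large-subunit protein with a small-subunit name, had a pooled ratio of 0.35 although its medians were 46.7 and 33 CPM. Mrps36, which is not a mitoribosomal protein, had medians of 30.6 and 39.4 CPM and a ratio of 0.57.

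By median pooled ratio, the family lay apart from the cytosolic ribosome and nearer to the respiratory chain. The 79 cytosolic ribosomal protein genes had a median ratio of 0.56, with 72 of 79 above 0, beside 7571 of all 13927 genes. They summed to 47514 CPM in GFP and 69063 CPM in RFP cells. The 83 nuclear-encoded respiratory chain genes had a median of -0.35 and summed to 40181 and 33615 CPM. The 13 mitochondrially encoded mRNAs, which the mitoribosome translates, had a median of -0.09, from -0.76 for mt-Nd6 to 0.18 for mt-Co1. The 8 of them at 10 CPM or more had a median of -0.38. The nucleolar genes, which serve assembly of the cytosolic ribosome, had a median of 1.48, with 12 of 14 at 1 or more. That is 85.7%, beside 25% of all genes. By cell pairs, the share with the RFP cell higher had a median of 41.6% over members and 46.7% over genes in the same CPM range. That median was 34.3% over the respiratory chain and 71.8% over the cytosolic ribosomal protein genes. On this measure members lay closer to genes in their range than to the respiratory chain. No test compares these lists.

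**Figure D4:**
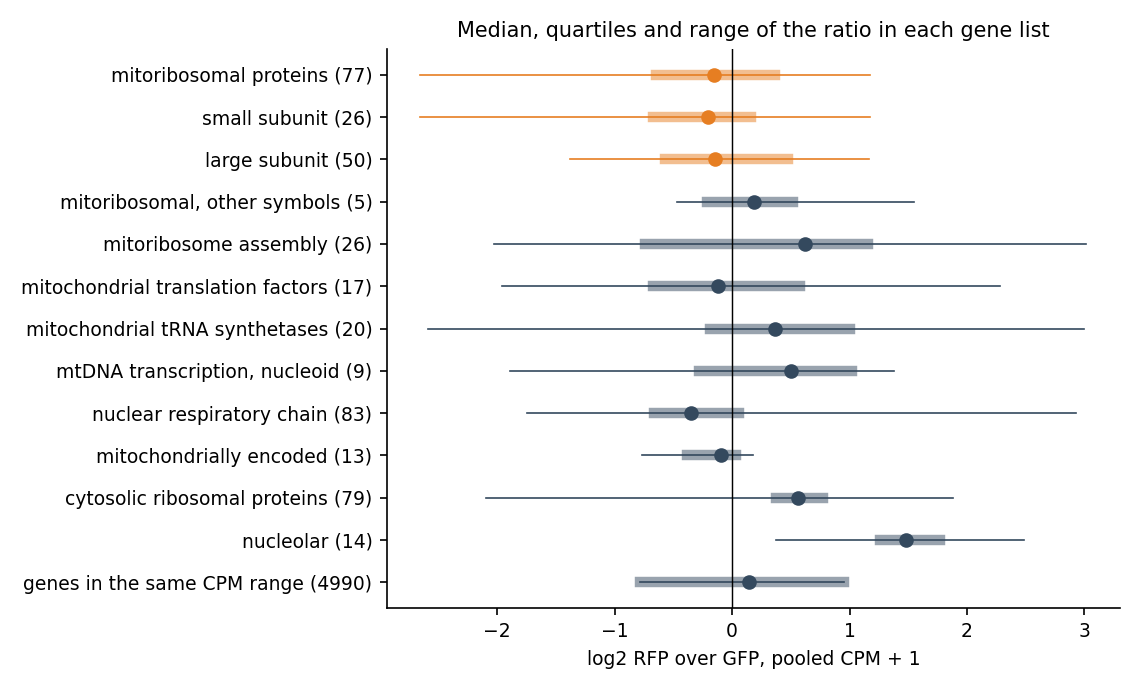
Median (circle), quartiles (thick bar) and full range (thin line) of the RFP-to-GFP log2 ratio in each gene list, with the number of measured genes; for genes in the same CPM range only the quartiles are drawn. The mitoribosomal proteins have a median of -0.15, the cytosolic ribosomal proteins 0.56, the respiratory chain genes -0.35 and the nucleolar genes 1.48.

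Mitoribosomal proteins that carry other symbols also lay on both sides of 0. Of 5 measured, Ptcd3, a small-subunit protein with RNA-binding repeats, had medians of 120 CPM in GFP and 317 CPM in RFP cells and a ratio of 1.55, above every Mrpl and Mrps gene. Dap3, a GTP-binding protein of the small subunit, was at -0.22, Gadd45gip1 at -0.47, Chchd1 at 0.18 and Aurkaip1 at 0.52. These 5 genes together had a median of 0.18.

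Genes that build the mitoribosome lay on both sides of 0 by pooled ratio, with 15 higher and 11 lower in RFP cells. That split was near the one over all 13927 genes, with 7571 higher and 6356 lower. Many were near the limit of detection in single cells. By cell pairs, with ties split evenly, the RFP cell was the higher in a median of 50.2% of pairs. None of these genes reached 75% of pairs or fell to 25%. Ties between cells without a read hold such shares near the middle, so they cannot show whether these genes shifted. Of 26 measured assembly genes, 10 were at 1 or more and 4 at -1 or less, with a median of 0.62, beside the 25% and 21.9% of all genes. Noa1, a GTPase of small-subunit assembly, was at 2.85 and 30.2 pooled CPM (3.02 on the log2 scale), and Nsun4, a methyltransferase of the ribosomal RNA, at 6.24 and 32.6 CPM (2.21). In RFP cells 9 and 12 of the 55 cells reached 10 CPM of these 2 genes. Mrm2, another ribosomal RNA methyltransferase, was at -1.12 and Mpv17l2, an inner membrane protein of assembly, at -0.79.

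The 17 translation factors had a median of -0.12, with 3 at 1 or more and 2 at -1 or less. Those are 17.6% and 11.8%, beside 25% and 21.9% of all genes. Guf1, a mitochondrial elongation GTPase, was at 2.28 and Gfm2, which acts in ribosome recycling, at 1.06. Mtfmt, which formylates the initiator tRNA, was at -1.96 and Taco1, a translational activator, at -1.90. Guf1, Mtfmt and Taco1 had medians of 0 CPM in both groups. They reached 10 CPM in 2, 12 and 13 GFP cells and in 10, 5 and 4 RFP cells. The 20 mitochondrial aminoacyl-tRNA synthetase and amidotransferase genes had a median of 0.37, with 5 and 1 (25% and 5%). Aars2 was at 2.37, Cars2 at 1.46, Gatc at -0.88 and Wars2 at -2.59. All of these had medians of 0 CPM in both groups. In that order, they reached 10 CPM in 2, 5, 13 and 11 GFP cells and in 4, 13, 10 and 4 RFP cells.

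For the mitochondrial DNA itself, 3 of 9 genes of transcription and the nucleoid were at 1 or more and 2 at -1 or less. Those are 33.3% and 22.2%, beside 25% and 21.9% of all genes. Tfam, which packages mitochondrial DNA and starts its transcription, had medians of 0.813 CPM in GFP and 48.6 CPM in RFP cells and a ratio of 1.16, and Mterf1a was at 1.38. Tfb2m, a transcription factor of the organelle, was at -0.08 and Polg, the DNA polymerase, at -1.89. Polg reached 10 CPM in 13 GFP cells and 1 RFP cell, and Mterf1a in 6 and 16, with medians of 0 CPM in both groups. Of 13 measured regulators of nuclear genes for mitochondria, 4 were at 1 or more (30.8%) and 0 at -1 or less. Mycn was at 2.37 and Tfe3 at 2.19, whereas Yy1, at medians of 47 and 2.11 CPM, was at -0.51 and Tfeb at -0.68. Mycn reached 10 CPM in 10 GFP and 24 RFP cells, Tfe3 in 10 and 26 and Tfeb in 11 and 3.

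From cell to cell, the 77 genes varied with little common movement. Over their 2926 pairs, the median Spearman correlation of log2(CPM + 1) was 0.061 across the 40 GFP cells, and it was also 0.061 for pairs of genes in the same CPM range. Across the 55 RFP cells it was 0.135, against 0.099 in the same range. Without cells above 10% mitochondrially encoded reads the medians were 0.036 in GFP and 0.088 in RFP cells, against 0.045 and 0.074 in the same range. Cytosolic ribosomal protein genes had 0.259 and 0.305, and nuclear respiratory chain genes 0.081 and 0.132. Both lists had higher median pooled levels than members, which were at 117 CPM in GFP and 104 CPM in RFP cells. The cytosolic genes were at 511 and 746 CPM and the respiratory chain genes at 434 and 312 CPM. The part of level in these correlations was not tested. In each group 20 pairs of members, or 0.684%, reached 0.5, beside 0.405% of pairs in the same range in GFP cells and 0.354% in RFP cells. All these pairs share the library and depth of each cell, and the values are descriptions.

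**Figure D5:**
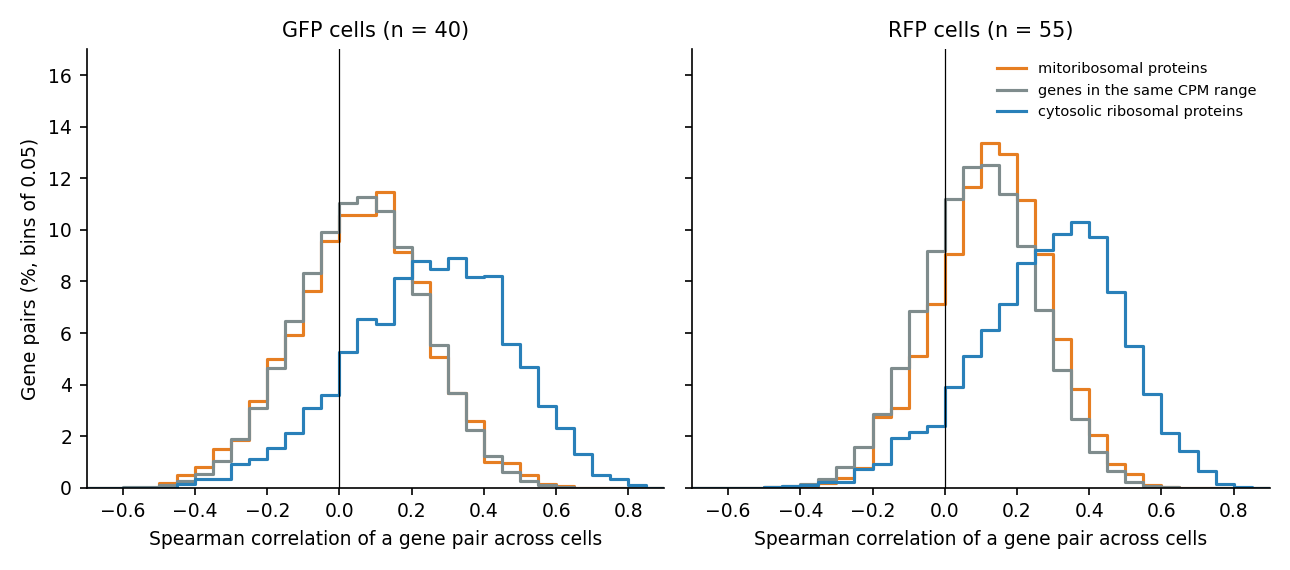
Distribution of Spearman correlations across cells over all pairs of genes within 3 sets, in bins of 0.05, for GFP cells (left) and RFP cells (right). The mitoribosomal pairs, with medians of 0.061 and 0.135, follow the pairs of genes in the same CPM range in GFP cells (0.061). In RFP cells they lie slightly to the right of those pairs (0.099). The cytosolic ribosomal pairs lie further right, with medians of 0.259 and 0.305.

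The pairs that were high in one group were mostly not those high in the other. Of the 20 pairs at 0.5 or more in each group 1 was shared, and 41 of 2926 pairs reached 0.3 in both groups. The correlation of the pair values between the groups was 0.126. These values were not computed for pairs of genes in the same CPM range, so they cannot be read as particular to the family. The shared pair was Mrps18c with Mrpl42, at 0.65 in GFP and 0.53 in RFP cells. Mrpl42, a mitochondrion-specific protein, had medians of 1119 CPM in GFP and 746 CPM in RFP cells. Mrpl37 and Mrpl42 ran opposite to each other in both groups, at -0.32 and -0.48, while Mrpl37 ran with Mrpl4 at 0.43 and 0.48. The highest RFP pair, Mrps12 with Mrpl57, was at 0.61 in RFP and 0.21 in GFP cells. Mrps21 had a mean correlation with the other members of -0.06 across GFP cells and 0.14 across RFP cells.

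The summed level of the family correlated positively with that of the respiratory chain in both groups. Across GFP cells the Spearman correlation of the member sum with the respiratory chain sum was 0.46, and across RFP cells 0.57. With the cytosolic ribosomal protein sum it was 0.47 in GFP cells and 0.08 in RFP cells. Without cells above 10% mitochondrially encoded reads the values were 0.42 and 0.49 for the respiratory chain and 0.58 and 0.13 for the cytosolic ribosome. The small- and large-subunit sums correlated at 0.31 in GFP cells and 0.70 in RFP cells. With the number of detected genes the member sum had correlations of -0.18 and -0.25, and the part of detection in the other values was not tested.

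Many of these genes share a start region with a neighbour on the other strand. A gene transcribed in the opposite direction began within 1000 bases of the start, or overlapped it by up to 200 bases, for 26 of 68 members (38.2%), against 12.7% of all promoters and 22.8% in the same range. The 26 genes form 25 pairs, because Mrpl46 and Mrps11 are each other's neighbour, with starts 42 bases apart, so the Mrps11 promoter printed above also spans the start of Mrpl46. Mrpl46 had medians of 163 CPM in GFP and 171 CPM in RFP cells and a ratio of 0.49, and Mrps11 medians of 28.1 and 24.5 CPM and a ratio of -0.23. Across cells the pair had a Spearman correlation of 0.11 in GFP and -0.12 in RFP cells. For Mrps11 the ratio changed sign, to 0.11, without GFP cell 3, the source of 23.2% of its GFP reads.

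In 18 pairs the neighbour also reached 10 CPM in at least 1 group, all 18 in RFP cells and 15 in GFP cells. Pnpla7, Ighmbp2 and Hira, at 3.45, 2.53 and 1.02, passed through RFP cells alone. The limit thus favoured neighbours higher in RFP cells. Over the 18 pairs the member's median ratio was -0.15 and the neighbour's 0.67, the neighbour had the higher ratio in 14 pairs, and both had the same sign in 6. The same counts were not made for such pairs of other genes. Several neighbours work in the same organelle. Sars2, the seryl-tRNA synthetase beside Mrps12, was at 0.98 against -0.09, Twnk, the mitochondrial DNA helicase beside Mrpl43, at 0.50 against -0.53, and Ndufb5, a complex I subunit beside Mrpl47, at -0.01 against -0.24. Ptcd2, beside Mrps27, was at -1.19 against 0.09, and this pair correlated across cells at 0.40 in GFP and 0.35 in RFP cells.

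Promoter methylation of the family in the cultured cells differed between libraries, but only slightly near the start. Within 500 bases of the start the medians were 4.69% in MEF, 4.10% in the Gjb2 35delG line and 3.46% in the Actin-RFP line. In the wider window used next, levels were close to those of other genes expressed in the same range. Over 1000 bases before to 500 after the start, 67 members had a level in all 3 libraries, each the deposited fraction averaged over windows of 200 bases. MEF had a median of 20.9%, the Gjb2 35delG ESCs 11.4% and the Actin-RFP ESCs 5.76%. The median number of calls behind a promoter was 700, 747 and 946. The libraries' means over all windows were 78.9%, 67.6% and 38.4% in the same order. Under 20% methylation were 33 members in MEF (49.3%, against 48.2% in the same range and 23.5% of all promoters), 52 in Gjb2 35delG ESCs (77.6%, against 75.1% and 33%) and 61 in Actin-RFP ESCs (91.0%, against 91.7% and 49%).

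In MEF the most methylated promoters were those of Mrpl33, at 51.9%, 36.3% and 18% in the same order, and Mrpl20, at 50.2%, 16% and 9.75%. The highest value was that of Mrpl3 in Gjb2 35delG ESCs, at 40.3%, and that of Mrps33 in Actin-RFP ESCs, at 27.2%. Mrps6, with the lowest RFP-to-GFP ratio, had 14.7%, 10.01% and 6.48%, and Mrps31, with the highest ratio, 29.5%, 19.1% and 9.18%. Mrps21 was at 22.3%, 17.4% and 7.93%, and Mrpl50 at 2.30%, 3.15% and 4.61%, the last in the opposite order of the libraries. With 1 library of each cell type no difference was tested, and none was made from the picked blastocyst cells.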

How the data were processed

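Per the labels' protocols, picked blastocyst cells were lysed one by one, and full-length cDNA amplification used no molecular identifier. Tools listed in the submitters' processing notes, without roles, are STAR 2.7.3a, featureCounts 2.0.0, fastp 0.20.0 and StringTie 2.0, and the build is mm10. For each cell the authors deposited a signal, the gene's reads divided by 1 factor. Every value was a whole multiple of its cell's smallest value within 0.01, so reads were recovered by division. CPM, pooled CPM, log2 ratios with a pseudocount of 1 and Spearman correlations were computed with numpy 2.4.6, pandas 2.3.3 and scipy 1.17.1. Only the pooled log2 ratio was tried on simulated reads, and the correlations were not. No embryo is named, so a group is 1 sample, no test was run between groups and no count model was fitted.

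For bisulfite libraries the authors deposited, per window of 200 bases, a methylation fraction with the methylated and unmethylated call counts. No source used here names their aligner or caller, and windows needed at least 5 calls.

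The members, gene lists, thresholds and the naming rule were chosen with earlier results of these data known. Named were the members with the 8 lowest and 8 highest ratios, the Mrps18 paralogs, Mrps30 and Mrps36. Of each related list, the 2 highest and 2 lowest genes at 10 CPM or more in either group were named. A gene could thus qualify through its higher group alone. A planned ranking per length was not made because transcript lengths were not used here. Alternatives covered the pseudocount, cell weighting, cell filters, scaling, thinning and leaving out each cell.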

Additional observations from a re-analysis of the deposited data

How the results depend on the processing

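No paired analysis was possible because the result comes from no test and a cell number only names a cell. The median log2 ratio of the members stayed below 0 in each setting run. It was -0.81 as a mean over cells of log2(CPM + 1), -0.58 with medians over cells, -0.27 with the median gene centred at 0 and -0.21 with cells thinned to 500000 reads. Leaving out each cell gave -0.18 to -0.12. The log2 ratio of the sum also stayed below 0. It was -0.22 with the mean CPM over cells, -0.32 with the mean log2, -0.21 with medians, -0.30 with the centred scaling and -0.23 with thinning. It was -0.18 without cells above 10% mitochondrially encoded reads, -0.19 with cells selected by lineage markers, -0.19 without mitochondrially encoded genes in the totals and -0.21 without the 100 genes with the most reads. Leaving out each cell gave -0.20 to -0.17, and without RFP cells 6, 39 and 44, an alternative added after seeing the data, it was -0.16.

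The count of members at 1 or more went from 3 to 0 with a pseudocount of 10, where the background was 20.5% in the same range. The count at -1 or less went from 10 to 6 with that pseudocount (background 18.6%), to 35 with the mean log2 (38%) and to 28 with medians over cells (36.8%). Leaving out each cell gave 2 to 4 at 1 or more and 8 to 11 at -1 or less. The shift of all genes under the centred scaling was 0.12. Of 336 values of the 21 named members under alternatives, 331 kept their sign and 174 moved beyond the counting interval. For the 11 of these members at 1 or more or -1 or less, 162 of 176 values stayed past that threshold. In GFP cells the median pair correlation was 0.19 with Pearson in place of Spearman, and in RFP cells 0.23; the cause was not tested.

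Median promoter methylation was 4.69%, 4.10% and 3.46% (MEF, Gjb2 35delG ESCs, Actin-RFP ESCs) within 500 bases of the start, 42.5%, 23.2% and 14.7% from 2000 before to 1000 after, and 11%, 6.63% and 4.32% with calls summed. The gap between libraries was thus small near the start and largest in the widest window. With at least 10 calls a window, MEF was at 15.9%. In 4 members 1 cell gave over 25% of a group's reads: 27.1% for Mrps6, 34.3% for Mrps9, 31.6% for Mrpl16 and 34.6% for Mrpl39.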
